A study of Homo sapiens with 9 samples.

Results

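The SLC25 genes encode the mitochondrial carrier family, and 33 of them, of 14207 genes tested, were followed in ARPE-19 cells given cigarette smoke condensate. Members were taken by symbol alone, as SLC25A followed by a number in the platform annotation, on a probe set that names no other gene. Single members were not picked by their values, but the family was chosen with earlier results of these data known. The annotation held 42 such symbols. The other 9 (SLC25A3, SLC25A15, SLC25A21, SLC25A27, SLC25A32, SLC25A33, SLC25A35, SLC25A51 and SLC25A52) lie only on probe sets that name further genes and are not members. SLC25A5, SLC25A6, SLC25A30, SLC25A38 and SLC25A53 were not analysed here. Where a member had more than 1 probe set, as SLC25A16 and SLC25A37 did, the probe set with the highest mean was used.

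Carriers of this family sit in the inner mitochondrial membrane, with a few in the outer membrane or in peroxisomes, and each moves small solutes such as ADP and ATP, phosphate, citrate, amino acids, acylcarnitines, cofactors, iron or glutathione. They connect the matrix with the cytosol, so that respiration, the malate-aspartate shuttle, fatty acid oxidation and haem synthesis all depend on them. Retinal pigment epithelium, the cell layer behind the photoreceptors, relies heavily on mitochondrial metabolism.

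ARPE-19 is an established line derived from human retinal pigment epithelium. Confluent cells in medium with albumin instead of serum received vehicle, 100 µg/ml or 250 µg/ml of a commercial nicotine-containing condensate dissolved in DMSO, with 3 arrays in each of the 3 groups. The sources used here give no length of exposure. Whether the arrays of a group stem from separate cultures is not stated; p-values therefore measure only the spread between these arrays, which may be technical, and all results rest on 1 cell line. The series title names mitochondrial dysfunction under oxidative stress, and transport across the mitochondrial membrane is one side of that function.

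Of 15 measured pigment epithelium markers, 8 lay at or above the median of all genes, among them KRT8, OTX2 and MITF, and 4 (BEST1, RPE65, RLBP1 and TTR) lay below the lower quartile, at the bottom of the scale. Over the list, mean values ran from 5.46 to 5.86 in the controls, from 5.26 to 5.48 at 100 µg/ml and from 5.26 to 5.49 at 250 µg/ml. All 5 photoreceptor markers, 3 of 4 glial markers, all 5 endothelial markers and 4 of 5 leukocyte markers lay below the median. Mean values of the 4 fibroblast markers, all below the median of all genes, ran from 3.14 to 3.95 in the controls, from 3.02 to 3.16 at 100 µg/ml and from 2.98 to 3.12 at 250 µg/ml. Among them COL1A1 read 6.55 on control replicate 2, against 3.69 and 3.56 on the other controls and 3.50 to 3.75 on the treated arrays. No marker of any list passed the test, and the part of these lists in the carrier values was not tested. Whether fewer cells or less RNA per cell lies behind a lower value cannot be told apart in such bulk samples. Control replicate 1 had the lowest array median (4.52, others 4.58 to 4.72), and 10 of the 33 carriers had their lowest value on it. Mean carrier values, relative to the average over the 9 arrays, were -0.21 on that array, -0.02 and 0.13 on the other controls and between -0.04 and 0.08 on the treated arrays.

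None of the 33 carriers passed the threshold at either dose. Tested with limma and Benjamini-Hochberg adjustment over all genes at 0.05, 0 carriers were called at 100 µg/ml, where 0.0633% of all genes were, 0 at 250 µg/ml against 0.549% of all genes, and 0 between the doses, where 0% of genes were called. The largest differences at 250 µg/ml were 0.96 log2 units for SLC25A44 and 0.80 for SLC25A12 above the controls and 0.66 for SLC25A29 below them. At an unadjusted p under 0.05 stood 5 carriers at 100 µg/ml (15.2%, background 14.6%), of which 3 were higher, and 10 at 250 µg/ml (30.3%, background 16.6%), of which 6 were higher. The arrays of 4 carriers did not overlap the controls at 100 µg/ml (12.1%, background 18.3%), and those of 9 did not at 250 µg/ml (27.3%, background 22.9%). At 100 µg/ml the first share was near the background and the second was under it. The number at an unadjusted p under 0.05 was 3, 3 and 8 at 100 µg/ml without control replicates 1, 2 and 3, and 2 and 3 without CSC_100 replicates 1 and 2. At 250 µg/ml it was 5 and 6 without CSC_250 replicates 1 and 2. The share of all genes was not taken with arrays left out, so these counts have no background.

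The median change of the 33 carriers was -0.01 log2 units at 100 µg/ml and 0.05 at 250 µg/ml, where all genes had medians of -0.05 and -0.04. Above the control mean lay 15 carriers (45.5%) at the lower dose and 19 (57.6%) at the higher dose, against 40.8% and 42.7% of all genes. Both doses were set against the same 3 controls, so their values are not independent of each other. For 27 of 33 carriers at 100 µg/ml and 25 at 250 µg/ml the unadjusted 95% interval of the difference lay within a 2-fold change either way. A 2-fold change remained inside the interval at 250 µg/ml for SLC25A4, SLC25A12, SLC25A20, SLC25A28, SLC25A29, SLC25A36, SLC25A44 and SLC25A46. The median SD between arrays of a group was 0.274 for the carriers in the controls, 0.208 at the lower dose and 0.185 at the higher dose, against 0.211, 0.176 and 0.155 over all genes.

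**Figure D1:**
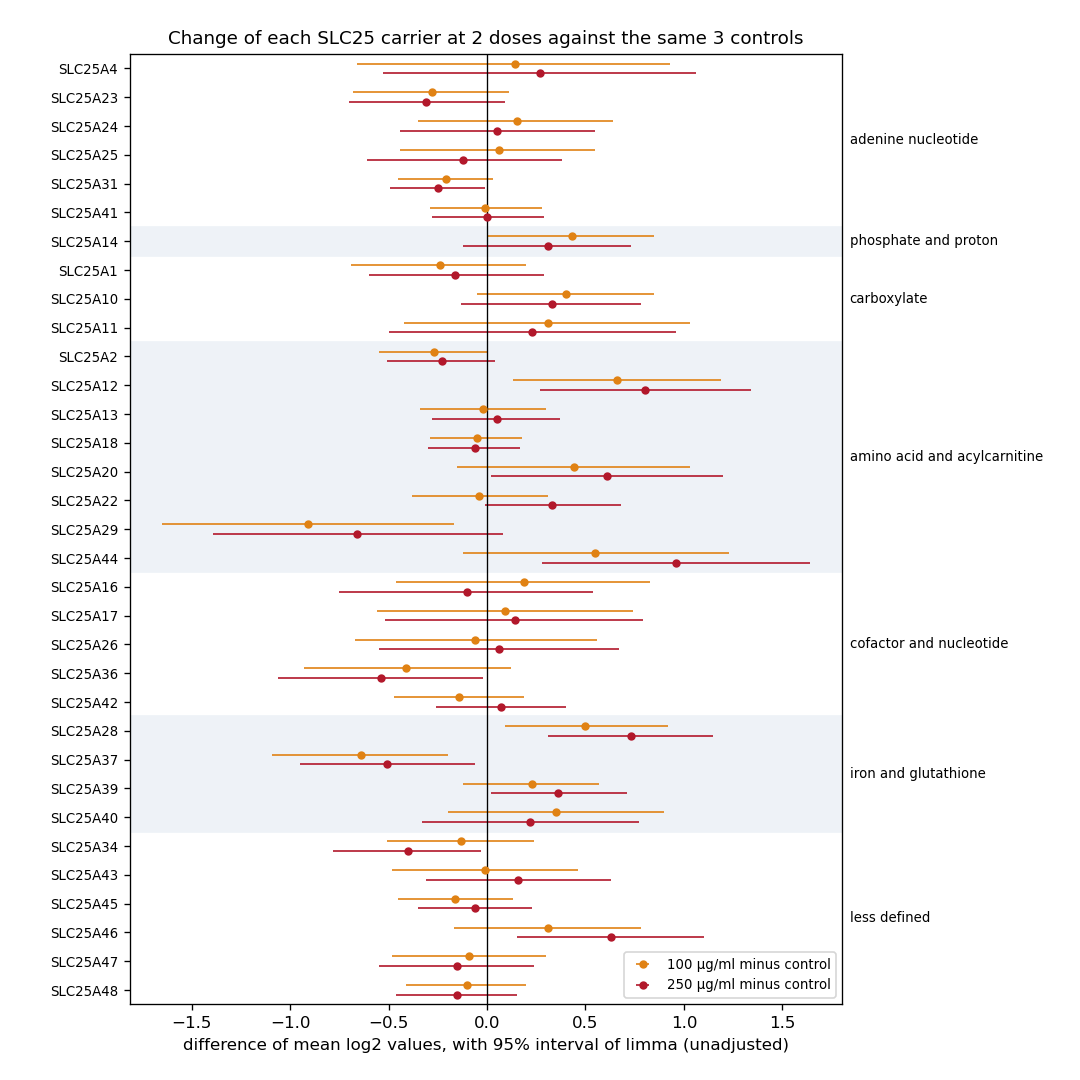
Difference of each of the 33 carriers from the vehicle controls, in log2 units on the horizontal axis, at 100 µg/ml (orange) and 250 µg/ml (red), with points for the difference of means of 3 arrays and bars for unadjusted 95% limma intervals. Most bars cross 0, and the points of SLC25A28, SLC25A12 and SLC25A44 lie furthest to the right at 250 µg/ml, where none passed after adjustment.

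Iron carriers gave the smallest p-values in the family, and the 2 genes differed from the controls in opposite directions. SLC25A28, or mitoferrin 2, brings iron into mitochondria of most cell types. Its controls read 5.38, 5.13 and 5.69, the arrays at 100 µg/ml 5.75, 6.18 and 5.77, and those at 250 µg/ml 6.15, 6.31 and 5.92. No array of either dose overlapped the controls, and SLC25A28 was one of 2 members above all controls at 100 µg/ml. The difference was 0.50 ± 0.18 log2 units (SE of 3 against 3 arrays; adjusted p = 0.28 by limma) at 100 µg/ml and 0.73 ± 0.18 (adjusted p = 0.11), or 1.66-fold, at 250 µg/ml.

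SLC25A37, mitoferrin 1, is the iron carrier best known from red cell precursors. On its probe set with the highest mean the controls read 6.80, 7.35 and 7.37, against 6.43, 6.42 and 6.75 at 100 µg/ml and 6.48, 6.95 and 6.57 at 250 µg/ml. All arrays at 100 µg/ml lay below all controls, whereas at 250 µg/ml replicate 2 lay above control replicate 1. The differences were -0.64 ± 0.20 (adjusted p = 0.22) and -0.51 ± 0.20 (adjusted p = 0.25). Its second probe set read 5.93, 6.29 and 5.87 in the controls, 4.94, 5.67 and 5.64 at the lower dose and 5.85, 6.40 and 5.61 at the higher dose. There too the arrays at 100 µg/ml lay below all controls, while those at 250 µg/ml overlapped them on both sides. With the mean of both probe sets the difference at 250 µg/ml was -0.29.

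The difference between both mitoferrins within an array was compared over samples, since a shift of a whole array cancels in it. SLC25A28 minus SLC25A37 was -1.42, -2.22 and -1.68 in the controls, -0.68, -0.24 and -0.97 at 100 µg/ml and -0.32, -0.65 and -0.65 at 250 µg/ml. Only the change of this quantity between groups can be read, not its level, because different probe sets bind differently. It moved by 1.15 at 100 µg/ml and 1.24 at 250 µg/ml with no overlap, and a two-sided exact permutation test gave p = 0.10 for each, the smallest that 3 against 3 arrays allow. Adjusted over the 8 such comparisons made (4 gene pairs at 2 doses, chosen after the values were seen) the p was 0.20. With the second SLC25A37 probe set, tried after the data were seen, the moves were 1.12 and 0.80, again with no overlap. At 100 µg/ml SLC25A28 lay above all controls, and SLC25A37 lay below them on either probe set. The lack of overlap and the permutation p at that dose were thus fixed in advance and add nothing to the results of the 2 genes. At 250 µg/ml SLC25A28 by itself also lay above all controls, so the test there is not independent of that result.

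**Figure D2:**
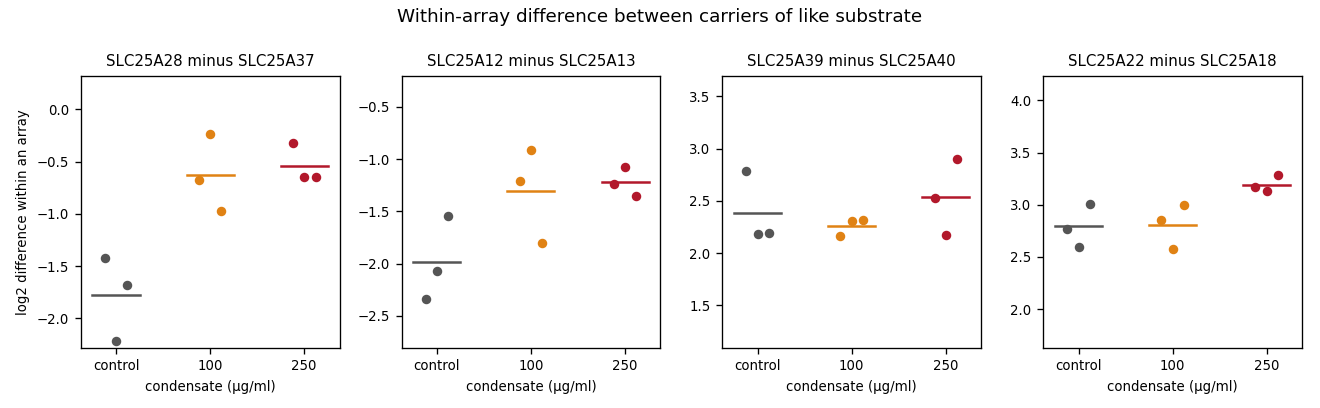
Difference in log2 value between carriers of like substrate within each array (vertical axis), with 1 point per array, bars for group means, and groups for vehicle, 100 µg/ml and 250 µg/ml on the horizontal axis. SLC25A28 minus SLC25A37 lay between -0.97 and -0.24 on the treated arrays and between -2.22 and -1.42 on the controls, while SLC25A39 minus SLC25A40 overlapped in all groups.

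SLC25A39 and SLC25A40 belong to the glutathione import route of mitochondria. SLC25A39 read 8.25, 8.17 and 8.56 in the controls, 8.37, 8.51 and 8.78 at the lower dose and 8.58, 8.67 and 8.83 at the higher dose. The arrays of the higher dose lay above all controls, the nearest by a small margin (8.58 against 8.56), and the difference was 0.36 ± 0.15 (adjusted p = 0.28). At 100 µg/ml the groups overlapped and the difference was 0.23 ± 0.15 (adjusted p = 0.51), or 0.11 without CSC_100 replicate 3. SLC25A40 read 5.45, 5.99 and 6.37 in the controls, 6.21, 6.20 and 6.46 at the lower dose and 6.05, 6.50 and 5.93 at the higher dose. Its groups overlapped at both doses, with differences of 0.35 ± 0.24 and 0.22 ± 0.24 (adjusted p = 0.52 and 0.67), and without control replicate 1 they were 0.11 and -0.02. The within-array difference SLC25A39 minus SLC25A40 moved by -0.13 at 100 µg/ml and 0.14 at 250 µg/ml (two-sided exact permutation p = 0.80 and 0.70).

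**Figure D3:**
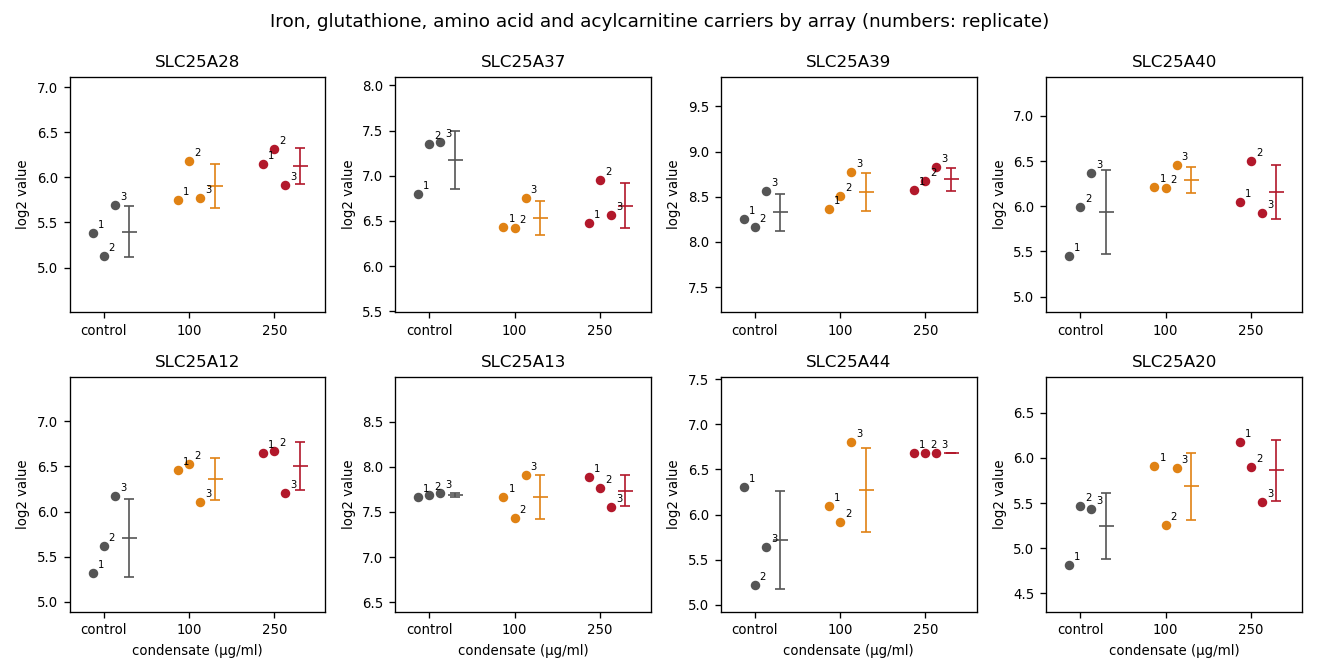
Log2 value of 8 carriers on each array (points, numbered by replicate) for vehicle control, 100 and 250 µg/ml condensate, with the group mean and SD of 3 arrays beside the points; each panel spans the same number of log2 units. SLC25A28 lay at 5.75 or above on all treated arrays and at 5.69 or below on the controls, and SLC25A44 read 6.68 on all 3 arrays at 250 µg/ml.

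Among carriers of amino acids and acylcarnitine, 4 of 8 had arrays at 250 µg/ml above all controls, as did 8.61% of all genes. These 4 were SLC25A12, SLC25A20, SLC25A22 and SLC25A44, and only SLC25A44 cleared the highest control by more than a small margin. SLC25A12 (aralar, the calcium-regulated aspartate-glutamate carrier of the malate-aspartate shuttle) read 5.32, 5.62 and 6.17 in the controls, 6.46, 6.53 and 6.10 at the lower dose and 6.65, 6.67 and 6.20 at the higher dose. At 100 µg/ml replicate 3 lay inside the control range, and at 250 µg/ml the lowest array was just above it. The difference was 0.66 ± 0.23 (adjusted p = 0.27) at the lower dose and 0.80 ± 0.23 (adjusted p = 0.15), or 1.75-fold, at the higher dose. With single arrays left out the latter ran from 0.61 without control replicate 1 to 1.04 without control replicate 3, and over all alternatives its adjusted p ran from 0.0504 to 0.44.

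SLC25A13, citrin, does the same exchange and read 7.66, 7.69 and 7.71 in the controls, 7.66, 7.43 and 7.91 at the lower dose and 7.89, 7.76 and 7.55 at the higher dose. Its treated arrays lay on both sides of the controls, with differences of -0.02 ± 0.14 and 0.05 ± 0.14 (adjusted p = 0.97 and 0.89), and the 95% interval at 250 µg/ml ran from -0.28 to 0.37. SLC25A12 minus SLC25A13 within an array was -2.34, -2.07 and -1.54 in the controls and -1.24, -1.08 and -1.35 at 250 µg/ml, which did not overlap. That is a move of 0.76 (two-sided exact permutation p = 0.10, the smallest possible, and 0.20 adjusted over the 8 comparisons). The pair was chosen after the values were seen. SLC25A12 by itself lay above all controls at this dose, so the test is not independent of that result. At 100 µg/ml the move was 0.68 with overlap (p = 0.20, exact permutation test, adjusted p = 0.32).

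SLC25A44 imports branched-chain amino acids into mitochondria. It had the largest difference of the family at 250 µg/ml, 0.96 ± 0.30 or 1.95-fold (adjusted p = 0.17). The controls read 6.30, 5.22 and 5.64, the arrays at 100 µg/ml 6.10, 5.92 and 6.80, and all 3 arrays at 250 µg/ml 6.68. The groups overlapped at 100 µg/ml (0.55 ± 0.30, adjusted p = 0.42), where leaving out CSC_100 replicate 3 gave 0.29 and control replicate 1 gave 0.85. Control arrays spread over more than 1 log2 unit here, so the size at 250 µg/ml depends on which are used, from 0.71 without control replicate 2 to 1.25 without control replicate 1.

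SLC25A20 exchanges carnitine and acylcarnitines and so feeds fatty acid oxidation. It read 4.82, 5.47 and 5.44 in the controls, 5.91, 5.26 and 5.89 at the lower dose and 6.18, 5.90 and 5.51 at the higher dose. Replicate 2 at 100 µg/ml lay within the control range. Every array at 250 µg/ml lay above that range, the nearest by a small margin (5.51 against 5.47). The differences were 0.44 ± 0.26 (adjusted p = 0.46) and 0.61 ± 0.26 (adjusted p = 0.29), and without control replicate 1 they were 0.23 and 0.40.

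SLC25A22, a glutamate carrier, had the smallest p of the members between the doses, though SLC25A44 differed by more (0.41). It read 6.00, 5.67 and 6.06 in the controls, 5.98, 5.64 and 6.00 at the lower dose and 6.35, 6.08 and 6.31 at the higher dose. Controls and the lower dose ran over the same range, and the higher dose lay above both, the nearest by a small margin (6.08 against 6.06). The difference was -0.04 ± 0.15 at 100 µg/ml, 0.33 ± 0.15 at 250 µg/ml (adjusted p = 0.93 and 0.31) and 0.37 ± 0.15 between the doses. Without control replicate 2 the value at 250 µg/ml was 0.21. SLC25A18, the other glutamate carrier, read 2.95 to 3.23 on all 9 arrays, near the lower quartile of all genes (3.06), with differences of -0.05 ± 0.10 and -0.06 ± 0.10.

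SLC25A29 carries basic amino acids and had the largest difference downward. Controls read 6.61, 7.66 and 7.51, the arrays at 100 µg/ml 5.87, 6.35 and 6.84 and those at 250 µg/ml 6.46, 6.46 and 6.90. Control replicate 1 lay below replicate 3 of both doses, so the groups overlapped. The differences were -0.91 ± 0.32 (adjusted p = 0.27) and -0.66 ± 0.32 (adjusted p = 0.35). The ornithine carrier gene SLC25A2 lay below the lower quartile of all genes and is not described further.

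Of 6 adenine nucleotide carriers, SLC25A31 was the one whose arrays lay apart from the controls. SLC25A4, the ADP/ATP carrier of heart and muscle that is also made elsewhere, read 7.23, 7.72 and 7.26 in the controls, 7.95, 7.21 and 7.45 at the lower dose and 8.47, 7.07 and 7.47 at the higher dose. Treated arrays lay on both sides of the controls, and the SD at 250 µg/ml (0.72) was the widest of any carrier in any group. Its differences were 0.14 ± 0.35 and 0.27 ± 0.35 (adjusted p = 0.89 and 0.73), and without CSC_250 replicate 1 the latter was -0.13. SLC25A31, an ADP/ATP carrier of the testis, lay at the bottom of the scale at 2.52 to 2.94. Its arrays at 100 µg/ml (2.72, 2.53 and 2.65) and 250 µg/ml (2.52, 2.55 and 2.72) lay below those of the controls (2.84, 2.94 and 2.75), by 0.21 and 0.25 log2 units (adjusted p = 0.40 and 0.29). No detection calls were used, so such values do not tell whether the gene was expressed. The ATP-magnesium/phosphate carriers SLC25A23, SLC25A24, SLC25A25 and SLC25A41 had differences between -0.31 and 0.15 over both doses, all with overlap.

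Carboxylate carriers, which move citrate, malate and 2-oxoglutarate, overlapped the controls at both doses. So did all but 18.3% of genes at 100 µg/ml and all but 22.9% at 250 µg/ml. SLC25A1, the citrate carrier that supplies cytosolic acetyl groups, read 9.20, 9.72 and 9.42 in the controls, 8.94, 9.17 and 9.50 at the lower dose and 9.41, 9.02 and 9.42 at the higher dose. Its differences were -0.24 ± 0.19 and -0.16 ± 0.19 (adjusted p = 0.58 and 0.71), and without control replicate 2 they were -0.11 and -0.02. SLC25A10, the dicarboxylate carrier, read 6.50, 6.11 and 6.93 in the controls, 6.80, 7.13 and 6.82 at the lower dose and 6.79, 6.80 and 6.94 at the higher dose, with differences of 0.40 ± 0.20 and 0.33 ± 0.20 (adjusted p = 0.40 and 0.44). Control replicate 3 lay within the treated range and the other controls below it. Leaving out control replicate 2 gave 0.20 and 0.13, and leaving out control replicate 3 gave 0.61 and 0.54.

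SLC25A11, the oxoglutarate-malate carrier that works with SLC25A12 in the malate-aspartate shuttle, read 7.70, 8.76 and 8.68 in the controls, 8.28, 8.85 and 8.92 at the lower dose and 8.20, 8.72 and 8.90 at the higher dose. Replicate 1 was the lowest array in each group. The differences of 0.31 ± 0.32 and 0.23 ± 0.32 (adjusted p = 0.69 and 0.75) became -0.04 and -0.11 without control replicate 1.

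SLC25A14, a relative of the uncoupling proteins, was the other member above all controls at 100 µg/ml. Controls read 3.83, 4.53 and 4.42, against 4.62, 4.88 and 4.57 at 100 µg/ml and 4.45, 4.58 and 4.67 at 250 µg/ml. The difference was 0.43 ± 0.19 (adjusted p = 0.34) at 100 µg/ml, and at 250 µg/ml it was 0.31 ± 0.19 with overlap (adjusted p = 0.44). Without control replicate 1 these were 0.21 and 0.09.

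Of the carriers of cofactors and nucleotides, none had arrays apart from the controls at either dose, against 18.3% and 22.9% of all genes. The pyrimidine nucleotide carrier SLC25A36 read 7.86, 8.27 and 8.14 in the controls, 7.89, 7.55 and 7.61 at the lower dose and 7.92, 7.71 and 7.03 at the higher dose. Array 1 of both doses lay within the control range and the others below it, with differences of -0.41 ± 0.23 and -0.54 ± 0.23 (adjusted p = 0.44 and 0.29). SLC25A16, SLC25A17, SLC25A26 and SLC25A42, which serve coenzyme A, peroxisomal cofactors and S-adenosylmethionine, had differences between -0.14 and 0.19.

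SLC25A46 differs from most of the family in that its protein lies in the outer membrane, where it takes part in the shaping of mitochondria. It read 7.60, 8.09 and 8.42 in the controls, 8.39, 8.12 and 8.53 at the lower dose and 8.83, 8.57 and 8.58 at the higher dose. The higher dose lay above every array of the controls and of the lower dose. The differences from the controls were 0.31 ± 0.21 (adjusted p = 0.52) and 0.63 ± 0.21 (adjusted p = 0.20), or 1.54-fold at 250 µg/ml. Without control replicate 1 they were 0.09 and 0.41. SLC25A34, whose substrate is not firmly known, read 4.58, 4.10 and 4.23 in the controls, 4.32, 4.31 and 3.87 at the lower dose and 3.82, 3.93 and 3.94 at the higher dose. Only the higher dose lay below all controls, with a difference of -0.40 ± 0.16 (adjusted p = 0.27), after -0.13 ± 0.16 at 100 µg/ml (adjusted p = 0.74). Without control replicate 1 these were -0.26 and 0.01. SLC25A43, SLC25A45, SLC25A47 and SLC25A48 had differences between -0.16 and 0.16 with overlap.

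**Figure D4:**
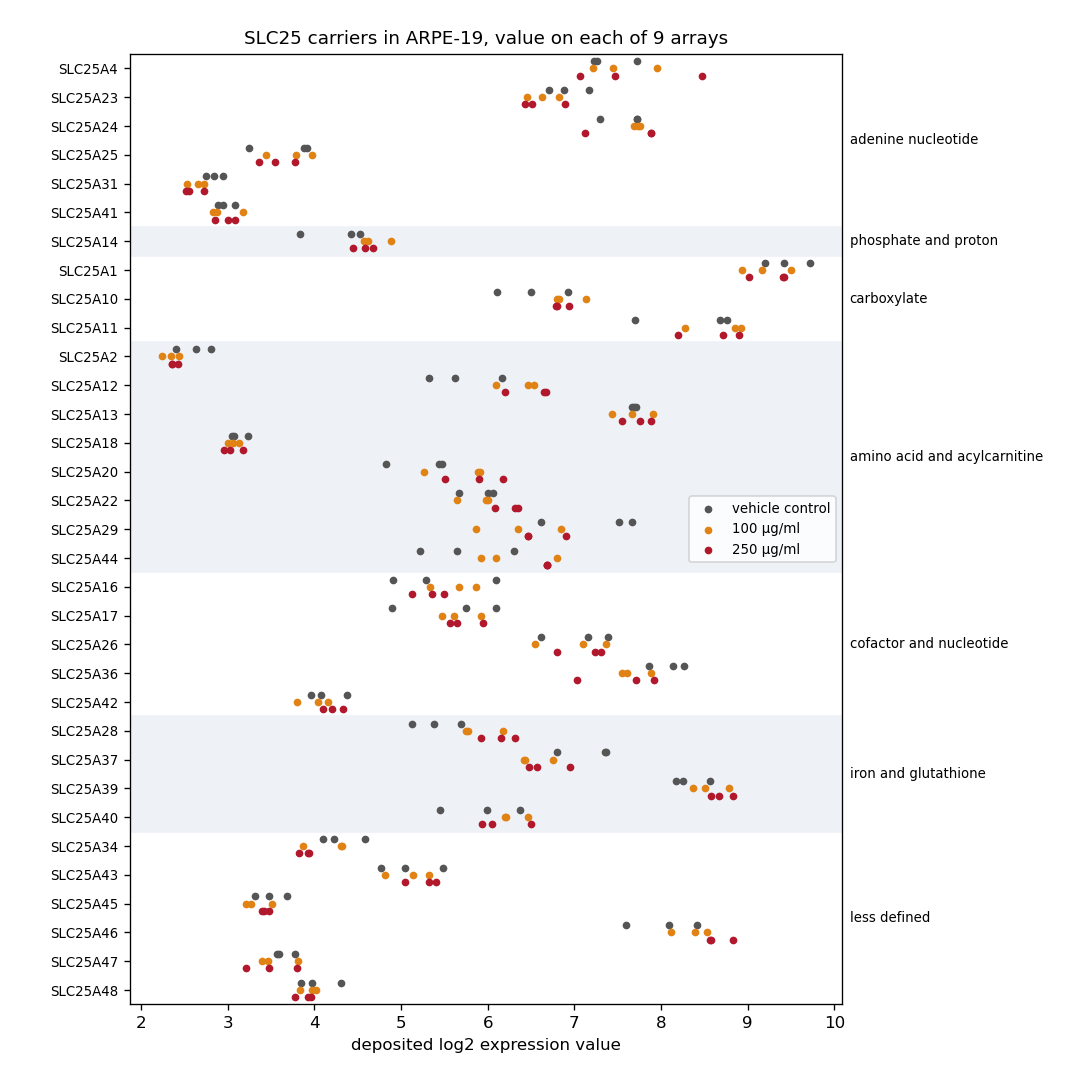
Deposited log2 value (horizontal axis) of each of the 33 carriers on the 9 arrays, grouped by role, with grey points for vehicle control, orange for 100 µg/ml and red for 250 µg/ml, 3 arrays each. Levels of different genes come from different probe sets and cannot be compared. For most genes the groups overlap, and the means of SLC25A2, SLC25A31 and SLC25A41 lie below 3.06, the lower quartile of all genes.

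Between 250 and 100 µg/ml the median difference of the carriers was 0.05, against 0.01 over all genes. SLC25A22 alone stood at an unadjusted p under 0.05 (1 of 33, 3.03%, background 1.84%), and SLC25A22 and SLC25A46 did not overlap (2 of 33, 6.06%, background 6.17%). SLC25A22 had an adjusted p of 1 with limma, and 32 of 33 carriers had intervals within 2-fold, the exception being SLC25A44 with an interval from -0.27 to 1.08. Array numbers paired the doses in these data, and with the array number as a replicate block 0 carriers were called and 1 stood at an unadjusted p under 0.05. The block with only the 6 arrays of both doses gave 0 and 3. Without the block, none stood at an unadjusted p under 0.05 once CSC_100 replicate 2 or CSC_250 replicate 1 or 3 was left out. Without CSC_100 replicate 3 there were 3. The share of all genes was not taken under the blocks or with arrays left out.

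Promoter sequences were set beside these values to show what lies upstream of the carriers with the smallest p (SLC25A28), the largest difference at 250 µg/ml (SLC25A44) and the link to glutathione (SLC25A39). Each is the 250 bases before the annotated start, from RefSeq, build GRCh38.p14, 5′ to 3′ on the gene's strand. They lie at chr10:99620440-99620689 on the minus strand, chr1:156193854-156194103 on the plus strand and chr17:44324824-44325073 on the minus strand. Capitals mark matches on either strand to GCGTG, the core bound by the aryl hydrocarbon receptor, and to TGACNNNGC, the antioxidant response element core bound by NRF2.
SLC25A28: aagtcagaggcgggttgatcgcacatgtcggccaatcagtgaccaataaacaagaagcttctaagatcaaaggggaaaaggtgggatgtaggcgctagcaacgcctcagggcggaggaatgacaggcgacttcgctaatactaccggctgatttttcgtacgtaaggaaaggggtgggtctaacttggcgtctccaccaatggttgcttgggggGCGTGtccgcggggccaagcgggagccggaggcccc
SLC25A44: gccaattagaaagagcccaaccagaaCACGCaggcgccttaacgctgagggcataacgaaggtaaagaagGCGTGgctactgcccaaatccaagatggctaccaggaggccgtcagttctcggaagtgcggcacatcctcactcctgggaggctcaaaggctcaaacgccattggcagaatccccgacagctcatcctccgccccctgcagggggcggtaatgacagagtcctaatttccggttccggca
SLC25A39: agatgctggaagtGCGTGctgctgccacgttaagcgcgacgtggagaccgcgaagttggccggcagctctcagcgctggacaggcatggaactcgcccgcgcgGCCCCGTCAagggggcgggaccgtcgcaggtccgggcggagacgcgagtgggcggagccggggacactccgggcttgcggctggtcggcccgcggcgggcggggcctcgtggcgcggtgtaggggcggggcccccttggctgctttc

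Of the 33 carriers 29 had a promoter in that table, and of the genes tested 11372 had one; the first listed start was used. GCGTG was present in 22 of 29 carrier promoters (75.9%) and in 40.2% of all. TGACNNNGC was present in 4 of 29 (13.8%; SLC25A1, SLC25A13, SLC25A24 and SLC25A39) and in 11.7% of all. The NRF1 site CGCNTGCGC, which overlaps GCGTG where its N is G, was present in 2 (6.9%, all 10.2%), and the ATF4 site TGATGNAA in 1, SLC25A11 (3.45%, all 2.03%). Carrier promoters had a median GC content of 65.2%, against 63.2%. Of the 4 carriers with TGACNNNGC, SLC25A1, SLC25A13 and SLC25A24 had differences between -0.24 and 0.15 over both doses, and SLC25A39 had 0.23 and 0.36. A match of these letters is a description and not a site of binding, and its absence from this window says nothing about the factor.

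Genes that work beside the carriers were taken from 4 lists, which were drawn up with earlier results of these data known. Of 26 measured mitochondrial transporters without an SLC25A symbol (of 32 listed), among them UCP1, UCP2, UCP3, MTCH1 and MTCH2, 0 passed at either dose. At an unadjusted p under 0.05 stood 5 higher and 4 lower at 100 µg/ml, and 6 and 3 at 250 µg/ml, where 14.6% and 16.6% of all genes did in either direction, with medians of 0.08 and 0.10. The sideroflexin gene SFXN2 differed by 0.84 ± 0.20 and the outer membrane channel gene VDAC2 by -0.74 ± 0.13 at 100 µg/ml (adjusted p = 0.20 and 0.13). Its relative VDAC3 lay above all controls at both doses, by 0.62 ± 0.18 and 0.77 ± 0.18 (adjusted p = 0.22 and 0.093), and VDAC1 differed by -0.72 ± 0.19 and -0.37 ± 0.19 (adjusted p = 0.21 and 0.36). CCDC51, a subunit gene of a mitochondrial potassium channel, differed by -1.03 ± 0.21 and the pyruvate carrier gene MPC1 by 0.92 ± 0.28 at 250 µg/ml (adjusted p = 0.071 and 0.17).

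Enzymes of the malate-aspartate, citrate and glycerol phosphate shuttles, of which 14 of 16 were measured, had medians of 0.34 and 0.32. At each dose 12 of 14 lay above the control mean, where 40.8% and 42.7% of all genes did. None passed at 100 µg/ml, where 3 were higher and 1 lower at an unadjusted p under 0.05 (14.6% of all genes), and 2 rose at 250 µg/ml, where 0.549% of all genes were called. At 250 µg/ml 5 were higher and 1 lower at an unadjusted p under 0.05 (16.6% of all genes). The lower one at both doses was ME3, a mitochondrial malic enzyme, which differed by -0.89 ± 0.25 and -1.33 ± 0.25 (adjusted p = 0.21 and 0.058), with all treated arrays below the controls. The 2 that rose were ME1, the cytosolic malic enzyme (1.62 ± 0.19, adjusted p = 0.015), and IDH1, the cytosolic isocitrate dehydrogenase (1.5 ± 0.20, adjusted p = 0.025), both of which make NADPH outside mitochondria. At 100 µg/ml they differed by 1.05 ± 0.19 and 1.09 ± 0.20 (adjusted p = 0.13 for each). Both calls ended with only the 6 arrays compared (adjusted p = 0.090 and 0.10), and without CSC_250 replicate 2 (0.10 and 0.13). That of IDH1 also ended without control replicate 1 (0.052) or 2 (0.054) and without CSC_100 replicate 1 (0.063) or 2 (0.059). SLC25A1, the citrate carrier of this route, lay slightly under the control mean at both doses, as given above.

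The 12 of 20 measured genes of amino acid metabolism had medians of 0.38 and 0.34 and 0 calls. At an unadjusted p under 0.05 stood 6 higher and 1 lower at 100 µg/ml (14.6% of all genes) and 3 higher at 250 µg/ml (16.6%). ASNS, asparagine synthetase, differed by 1.25 ± 0.46 and 1.21 ± 0.46 (adjusted p = 0.29 and 0.25), and GLDC of glycine cleavage by 0.81 ± 0.18 and 0.92 ± 0.18 (adjusted p = 0.18 and 0.066). Genes of iron-sulfur cluster and haem synthesis, which use the iron that mitoferrins import, had medians of 0.35 and 0.40, and all 9 measured (of 14) lay above the control mean at both doses, where 40.8% and 42.7% of all genes did. Of them 0 passed and 3 stood at an unadjusted p under 0.05 at each dose, all higher, where 14.6% and 16.6% of all genes stood in either direction. ISCU lay least above the control mean, by 0.07 ± 0.19 and 0.00 ± 0.19. Its control replicate 1 read 7.32, against 7.81 and 8.02 on the other controls, and the count without that array was not taken. FECH, ferrochelatase, differed by 0.84 ± 0.30 and 1.22 ± 0.30 (adjusted p = 0.27 and 0.10), and ALAS1, the first enzyme of haem synthesis, by 0.53 ± 0.23 and 0.92 ± 0.23 (adjusted p = 0.33 and 0.10).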

How the data were processed

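Gene expression was measured on 9 Affymetrix exon arrays of total RNA. Each deposited value is a log2 expression level of 1 probe set per array. RMA, Partek and hg18 are named in the submitters' processing notes, and the sources used here give no versions, settings or filters. RMA brings arrays to a common scale and narrows the changes of dim genes. Of 17629 probe sets, 14378 named 1 gene, 2405 several and 846 none. Symbols were updated through RefSeq (GRCh38.p14), and for 169 genes the probe set with the highest mean was kept, leaving 14207 genes. Every comparison was fitted on all 9 arrays with limma 3.58.1 in R 4.3.3, 1 mean per group, default eBayes and Benjamini-Hochberg adjustment over all genes at 0.05; the script was tested on simulated data. Errors are moderated SEs, and intervals are 95%. Members and lists were chosen with earlier results of these data known. Written out in full were members whose arrays did not overlap (the 5 largest each way per dose, 3 between doses) and a set named whatever its values, 17 in all; others were added after their values were seen. Deviations from the group means correlated at 0.60, 0.44 and 0.68 between same-numbered arrays of both doses, which were therefore taken as paired from the data, and between -0.14 and 0.26 against the controls, where no pairing was assumed. Alternatives, 20 per comparison, covered scaling, dim genes, probe sets, arrays used, blocks, weights and the variance prior. The number of arrays and their spread limit the precision.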

Additional observations from a re-analysis of the deposited data

Results flagged for a closer look

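A signal in data outside the 33 carriers was found on the probe set that names both SLC25A15, the ornithine carrier of the urea cycle, and the microRNA gene MIR621, and which therefore entered no comparison. It read 4.53, 4.33 and 4.40 in the controls, 5.69, 5.51 and 5.26 at 100 µg/ml and 5.59, 5.40 and 5.08 at 250 µg/ml, so every treated array lay above every control. The difference was 1.07 ± 0.16 log2 units at 100 µg/ml and 0.94 ± 0.16 at 250 µg/ml, larger at 100 µg/ml than that of any of the 33 carriers. In a limma fit over all 17629 probe sets, chosen after the values were seen, the adjusted p was 0.096 and 0.052, so it did not pass. Which of both genes the signal came from was not tested.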

How the results depend on the processing

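In each of the 20 alternatives for each comparison 0 carriers were called. The smallest adjusted p of any carrier was 0.0504, for SLC25A12 at 250 µg/ml without control replicate 3. With the array number as a replicate block 0 carriers were called in each comparison, and the calls of ME1 and IDH1 held; the block on only the 6 arrays compared ended both at 250 µg/ml (adjusted p = 0.26 and 0.27). Calls among all genes depended strongly on the setting: 9 at 100 µg/ml ran from 0 to 73, and 78 at 250 µg/ml from 1 to 296, with 3 and 122 under the block. With single arrays left out, the median change of the carriers ran from -0.04 without CSC_100 replicate 1 to 0.064 without control replicate 3 at 100 µg/ml, and from -0.041 without CSC_250 replicate 1 to 0.191 without control replicate 3 at 250 µg/ml, so its sign depends on 1 array. Between the doses it was 0.049, and 0.094 when array 3 was dropped from each dose, which was tried after the data were seen. Several alternatives, such as the blocks, the variance prior and only the 6 arrays compared, leave a difference of means unchanged by construction. No sign could change there, so the next count, which includes them, is no measure of how stable the signs are. Of 1017 values of the named carriers under alternatives, 29 had the opposite sign to the value reported. Of these, 24 moved by less than 1 SE and 5 by more (SLC25A11, SLC25A40 and SLC25A4, each without 1 array). The cause was not tested. No detection call was used, which limits SLC25A2, SLC25A31 and SLC25A41.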

Other observations

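Other carriers on shared probe sets were read without being members. The probe set of SLC25A3, the phosphate carrier, which also names SNORA53, read 7.91, 8.13 and 8.18 in the controls, 7.77, 7.72 and 7.86 at 100 µg/ml and 7.47, 7.85 and 7.80 at 250 µg/ml. Every treated array lay below every control, by 0.29 and 0.37 log2 units on average (limma adjusted p = 0.36 and 0.23 over all probe sets). The probe set of SLC25A27, an uncoupling protein relative, which also names TDRD6, lay below all controls at 250 µg/ml, by 0.34 (adjusted p = 0.27), and overlapped them at 100 µg/ml (-0.27, adjusted p = 0.41). The probe set of SLC25A32, a folate and flavin carrier, which also names BAALC-AS1, differed by -0.06 and -0.04. The one that names both NAD carriers SLC25A51 and SLC25A52 differed by -0.18 at 250 µg/ml, with arrays from 3.48 to 4.29 there and from 3.63 to 4.57 in the controls.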
